A study of Mus musculus with 12 samples.

Results

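Macrophages are the main resident leukocytes of the fetal mouse gonad, and the genes described here are 37 genes that macrophages, or leukocytes in general, are known for. They were taken as a list of gene symbols, and all 37 were found among the 30701 genes that the array names by 1 symbol, each with 1 transcript cluster, the array's unit for a locus. The list spans receptors and transcription factors of the macrophage lineage, the complement C1q chains, uptake receptors, Fc receptors and their adaptors, lysosomal proteins, secreted factors, pan-leukocyte surface proteins, and cytoskeletal, signalling and oxidase genes. RNA was measured on the Affymetrix Mouse Transcriptome Array 1.0 in gonads at 14.5 days post coitum, with 4 arrays in each of 3 groups. Every embryo carried the Sf1-Cre transgene, and the XY control and XX control groups carried unaltered Rosa26 alleles. XY FOXL2+ embryos also carried 1 Rosa26-CAG-LSL-Foxl2 allele, from which Cre permits expression of the ovarian transcription factor FOXL2. Sf1-Cre acts in somatic cells of the gonad, so leukocytes are not the cells in which the transgene is meant to be switched on. The strain was a mix of 129Sv and C57Bl/6J, and each array held 1 pair of gonads from 1 embryo, freed of the mesonephros.

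As background, fetal gonad macrophages derive from yolk sac and later fetal haematopoietic precursors. They depend on signalling through CSF1R, clear dying and misplaced cells, and take part in the vascular remodelling that shapes the fetal testis. Monocytes and granulocytes reach the gonad through its vessels, and many of the 37 genes are shared between these cells. In whole gonads, fewer cells of a type and less RNA per cell cannot be told apart.

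All values are log2 signals, and a log2 difference of 1 is a 2-fold difference. Foxl2 read between 6.72 and 8.62 on the XY FOXL2+ arrays, 5.07 to 5.55 in XY controls and 7.14 to 8.08 in XX controls. Mean signals of the 37 genes ran from 5.51 to 11.76, with a median of 6.54. The Y-linked genes Eif2s3y, Uty and Kdm5d, which XX gonads lack, read 5.85 to 6.39 in XX controls, and 14 of the 37 genes had a mean at or under the top of that range. Control probe sets gave unlike levels: array medians were 7.18 to 7.8 over 5222 labelled neg, and 3.99 to 4.17 over 23 labelled as background. Low signals, also those above the range of the Y-linked genes, are therefore not shown to be above background. Levels are compared between groups for 1 gene, never between genes. XY FOXL2+ replicate 1 stood apart from the other arrays: it had the lowest array weight, 0.296, and the highest neutrophil and erythroid marker signals. Spearman correlations with the other arrays of its own group were 0.981 to 0.984.

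The transgenic XY gonads differed from XY controls in few of these genes, and mostly upward. Of the 37 genes, 4 rose (Csf1r, Adgre1, C1qb and Mrc1) and 1 fell (Irf8) in XY FOXL2+ relative to XY control, at an adjusted p under 0.05 in limma. Over all genes with 1 symbol, 3.37% were called higher and 4.72% lower in the same comparison. The median log2 difference over the 37 genes was 0.18, against 0.02 over all genes, and 30 of the 37 estimates lay above 0, where 16807 of 30701 did over all genes. In 6 of the 37 genes all 4 XY FOXL2+ arrays read above all XY control arrays, and in 1 they read below, where 7.3% and 7.43% of all genes did so. Without XY FOXL2+ replicate 1 the counts were again 4 higher and 1 lower, with a median of 0.114. The comparisons with XY control share those control arrays, so the values of each are given side by side and no agreement between them is drawn.

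**Figure D1:**
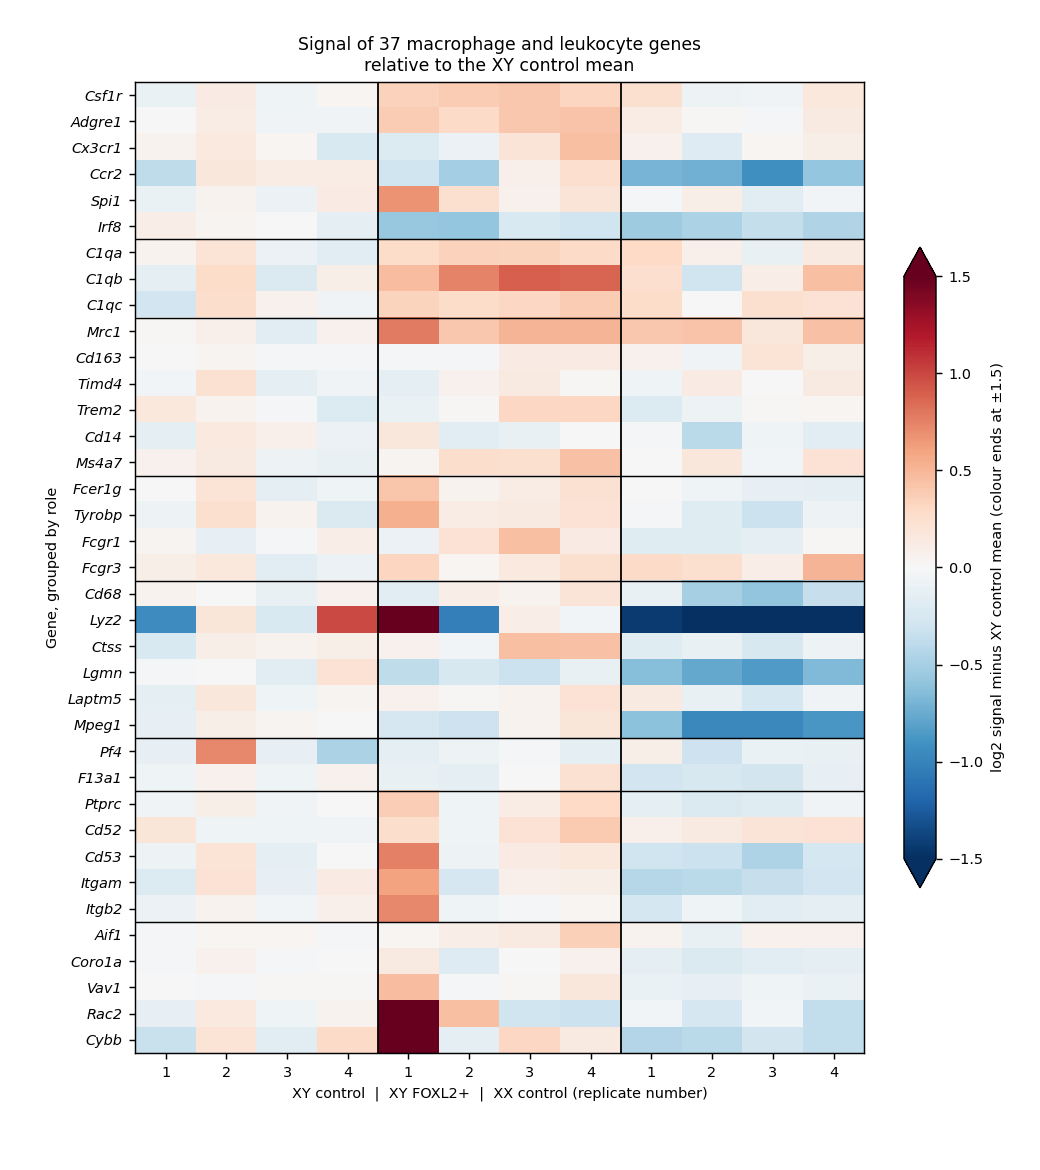
Heat map of the 37 genes (rows, grouped by role with horizontal lines) on the 12 arrays (columns, replicates 1 to 4 of each group). Colour is the log2 signal minus the mean of the 4 XY control arrays, with ends at 1.5 in either direction. Csf1r, Adgre1 and C1qb are redder on all 4 XY FOXL2+ arrays than on any other array, Mpeg1 and Lgmn are bluest on the XX arrays, and Lyz2, Rac2 and Cybb are deep red on XY FOXL2+ replicate 1.

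Among lineage receptors, the CSF1 receptor gene Csf1r, required for macrophage survival, read 7.18, 7.40, 7.21 and 7.31 in XY controls (replicates 1 to 4 in order, as in all such series below). It read 7.62, 7.65, 7.68 and 7.60 in XY FOXL2+, and 7.52, 7.20, 7.22 and 7.43 in XX controls. Every XY FOXL2+ array was above every array of both control groups. The difference from XY control was 0.36 (SE 0.09, adjusted p = 0.0268), or 1.28-fold, and that from XX control, 0.29, missed the threshold (adjusted p = 0.0815). The call against XY control was lost when XY control replicate 1, 3 or 4 or XY FOXL2+ replicate 2 or 3 was left out, with adjusted p from 0.0524 to 0.0859, and without XY FOXL2+ replicates 3 and 4 together (0.0645). It was also lost with replicate number as a block (0.0627).

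Adgre1, which encodes the surface receptor most used to mark mouse macrophages, showed the same order of groups. Its signals were 6.64, 6.76, 6.60 and 6.59 in XY controls, 7.03, 6.93, 7.05 and 7.08 in XY FOXL2+, and 6.76, 6.67, 6.63 and 6.78 in XX controls. The XY FOXL2+ arrays again overlapped neither control group, while the controls overlapped each other. Adgre1 rose by 0.37 over XY control (SE 0.07, adjusted p = 0.00611) and by 0.31 over XX control (SE 0.07, adjusted p = 0.0225). The first call held with any single array left out. The second was lost without XY FOXL2+ replicate 3 or 4 or XX control replicate 2 or 3, with adjusted p of 0.0633 to 0.0785, and with only those groups fitted (0.0627). It was also lost with replicate number as a block (0.0569).

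Irf8, a transcription factor needed for monocyte and dendritic cell development, read 6.43, 6.37, 6.32 and 6.19 in XY controls, 5.76, 5.75, 6.10 and 6.03 in XY FOXL2+, and 5.80, 5.85, 5.97 and 5.88 in XX controls. Both other groups lay wholly below the XY controls. Irf8 fell by 0.42 in XY FOXL2+ (SE 0.09, adjusted p = 0.014) and by 0.46 in XX controls (SE 0.09, adjusted p = 0.00353), and the XY FOXL2+ and XX signals differed by 0.04 (95% interval -0.16 to 0.23). The first call was lost when only the XY groups were fitted (adjusted p = 0.0577). Its signals lay in or near the range of the Y-linked genes in XX gonads.

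Ccr2, the chemokine receptor of inflammatory monocytes, read 6.15, 6.70, 6.64 and 6.64 in XY controls, 6.23, 6.02, 6.61 and 6.79 in XY FOXL2+, and 5.84, 5.81, 5.61 and 5.95 in XX controls. The XX arrays were below every XY array of either kind, and lay in or below the range of the Y-linked genes in XX gonads. Ccr2 fell by 0.73 in XX relative to XY controls (SE 0.17, adjusted p = 0.00753), which was kept without any single array. XY FOXL2+ exceeded XX by 0.61, just outside the threshold (adjusted p = 0.0515). Spi1, which encodes the myeloid master factor PU.1, gave 0.30 in XY FOXL2+ minus XY control (adjusted p = 0.172), its highest signal being 6.77 on XY FOXL2+ replicate 1. Cx3cr1, the fractalkine receptor of tissue macrophages, gave 0.08 (adjusted p = 0.803), with a 95% interval from -0.21 to 0.38.

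C1qa, C1qb and C1qc encode the 3 chains of C1q, which starts the classical complement pathway and is made largely by macrophages. They lie next to each other among protein-coding genes on chromosome 4 in the RefSeq annotation. C1qb read 6.96, 7.38, 6.88 and 7.19 in XY controls, 7.56, 7.85, 8.0 and 7.97 in XY FOXL2+, and 7.35, 6.80, 7.20 and 7.55 in XX controls. All XY FOXL2+ arrays exceeded all control arrays. C1qb rose by 0.74 over XY control (SE 0.16, adjusted p = 0.0137), or 1.67-fold, and by 0.61 over XX control (SE 0.16, adjusted p = 0.0442).

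The other C1q chains did not pass, and differences between chains were not tested. C1qa read 6.49, 6.64, 6.35 and 6.28 in XY controls, 6.72, 6.78, 6.77 and 6.73 in XY FOXL2+, and 6.74, 6.52, 6.33 and 6.57 in XX controls. C1qc read 6.27, 6.82, 6.62 and 6.50, then 6.89, 6.83, 6.86 and 6.93, then 6.83, 6.55, 6.79 and 6.77 in the same order of groups. For both, the XY FOXL2+ arrays lay above all XY control arrays and overlapped the XX arrays. Neither passed the test against XY control: C1qa gave 0.31 (adjusted p = 0.082) and C1qc 0.32 (adjusted p = 0.102). Both passed without XY control replicate 2, at adjusted p of 0.0413 and 0.032. The C1qb call against XY control was lost without XY control replicate 3 (adjusted p = 0.0509) and without XY FOXL2+ replicates 3 and 4 together (0.0749). Against XX control it was lost when any 1 of 9 arrays was left out (XY control 1, 3 or 4, XY FOXL2+ 2, 3 or 4, XX control 1, 2 or 3), with adjusted p of 0.0535 to 0.122. It was also lost on median centring (0.0504), with only those groups fitted (0.0857) and with replicate number as a block (0.0651).

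Of the uptake receptors, only Mrc1, the mannose receptor CD206, passed the test in any comparison. It read 7.90, 7.96, 7.72 and 7.95 in XY controls, 8.66, 8.29, 8.39 and 8.39 in XY FOXL2+, and 8.29, 8.31, 8.05 and 8.32 in XX controls. The XY controls were lowest throughout, and the other groups overlapped. Mrc1 rose by 0.55 in XY FOXL2+ (SE 0.10, adjusted p = 0.00568) and by 0.36 in XX controls (SE 0.10, adjusted p = 0.027). It was the 1 gene of the 37 called higher in XX than in XY controls. That call was lost without XY control replicate 1 or 3 or XX control replicate 1, 2 or 4 (adjusted p of 0.0545 to 0.0929), while the XY FOXL2+ call held with any 1 array left out. Timd4 and Cd163, of resident macrophages, Trem2, a lipid and debris receptor, Cd14, the lipopolysaccharide co-receptor, and Ms4a7 gave -0.03 to 0.24 in XY FOXL2+ minus XY control, none past the threshold. The mean signals of Timd4 (5.51), Cd163 (5.7) and Trem2 (5.62) lay below those of the Y-linked genes in XX gonads.

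**Figure D2:**
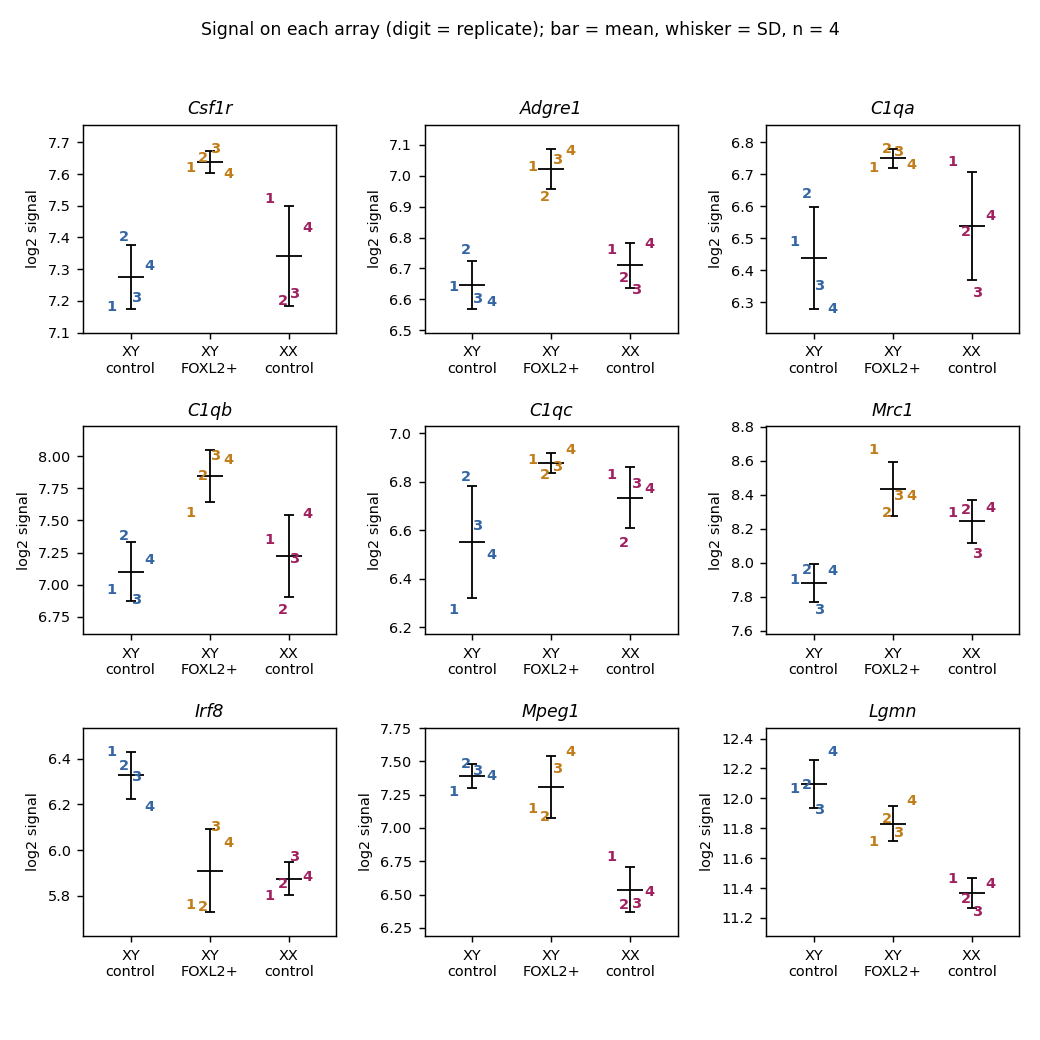
Log2 signal (vertical axis, scaled to each gene) of 9 genes on each array, by group. Digits are replicate numbers, horizontal bars are group means and whiskers are the SD (n = 4). In Csf1r, Adgre1 and C1qb the XY FOXL2+ digits lie above both control groups, in Mrc1 and Irf8 the XY controls lie apart from the other groups, and in Mpeg1 and Lgmn the XX controls lie lowest.

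The 250 bases upstream of the start of 4 genes are shown because the results name these genes in different comparisons: C1qb and C1qc as neighbours of the same complex, Mrc1 as called in both, and Mpeg1, described below, as the steepest decline in XX other than Lyz2. They were picked after the signals had been seen. Sequences are from RefSeq on GRCm38.p6, written from 5′ to 3′ on the strand of the gene, and capitals mark GAGGAA on either strand, the core of the sites that PU.1 is known to bind.
C1qb: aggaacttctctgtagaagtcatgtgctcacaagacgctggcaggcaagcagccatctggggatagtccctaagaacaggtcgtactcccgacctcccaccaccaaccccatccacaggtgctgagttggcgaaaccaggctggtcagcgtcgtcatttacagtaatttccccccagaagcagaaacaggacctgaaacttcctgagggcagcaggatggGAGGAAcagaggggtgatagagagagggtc
C1qc: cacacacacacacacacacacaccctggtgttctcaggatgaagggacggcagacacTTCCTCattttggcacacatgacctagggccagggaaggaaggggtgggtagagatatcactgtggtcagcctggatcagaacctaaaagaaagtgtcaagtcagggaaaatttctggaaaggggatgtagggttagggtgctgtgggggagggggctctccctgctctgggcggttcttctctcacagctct
Mrc1: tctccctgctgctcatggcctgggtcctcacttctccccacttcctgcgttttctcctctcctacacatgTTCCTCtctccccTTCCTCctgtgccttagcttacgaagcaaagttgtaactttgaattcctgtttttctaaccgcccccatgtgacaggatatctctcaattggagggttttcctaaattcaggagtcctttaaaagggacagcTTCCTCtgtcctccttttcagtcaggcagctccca
Mpeg1: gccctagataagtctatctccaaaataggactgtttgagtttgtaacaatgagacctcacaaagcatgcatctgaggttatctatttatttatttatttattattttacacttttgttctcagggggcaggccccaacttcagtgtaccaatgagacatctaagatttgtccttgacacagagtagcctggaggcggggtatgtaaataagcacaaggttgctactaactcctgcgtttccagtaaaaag
The stretches are chr4:136886201-136886450 (minus strand) for C1qb, chr4:136892915-136893164 (minus) for C1qc, chr2:14229164-14229413 (plus) for Mrc1 and chr19:12460520-12460769 (plus) for Mpeg1. The match began 30 bases before the start in C1qb and 193 bases before it in C1qc. Mrc1 held 3 matches, at 180, 167 and 35 bases before the start, and Mpeg1 held none.

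A promoter was at hand for 28 of the 37 genes, and 16 of these (57.1%) held GAGGAA in the 250 bases on either strand, against 25.9% of 27025 genes and 23.3% of 32851 promoters. This string was 1 of 7 searched on both strands, and it was put forward after the matches of the others had been seen. Of the 28 genes, 10 held GAGGAAG (12% of all genes), 3 held GAGGAAGT (2.79%), 4 held AAGAGGAA (3.42%) and 5 held TATAAA (14.3%). The last 2 strings were a lengthened form of GAGGAAGT, held by 1 of the 28 genes (0.385% of all genes), and an interferon-type element, held by 0 (0.233%). All but TATAAA and the interferon-type element contain GAGGAA, so their matches overlap. A match is a description of letters, and binding was not measured.

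Fc receptors and their adaptors, which pass signals from antibody-coated particles, had no gene past the threshold of the limma test in any comparison. At an unadjusted p under 0.05 there were 0, 1 and 3 of 4 genes in XY FOXL2+ minus XY control, XX minus XY control and XY FOXL2+ minus XX control. Over all genes, 10.9% were higher and 10.4% lower at that p in the first comparison, and 14.9% and 17.1% in the second. In the third, 11.4% were higher and 9.28% lower. Fcer1g, the shared gamma chain, gave 0.20 in XY FOXL2+ minus XY control and 0.28 in XY FOXL2+ minus XX control. Tyrobp, the adaptor DAP12, read 7.01, 6.59, 6.61 and 6.69 in XY FOXL2+ and 6.45, 6.30, 6.15 and 6.40 in XX controls. Those groups did not overlap, and the difference of 0.40 had an adjusted p of 0.0729. Fcgr1, the high-affinity IgG receptor, gave 0.30 against XX control (adjusted p = 0.127). Fcgr3, a low-affinity IgG receptor, ran the other way at -0.10 (adjusted p = 0.694) and was 0.29 higher in XX than in XY controls (adjusted p = 0.0856).

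In XX relative to XY controls 1 of the 37 genes rose (Mrc1) and 6 fell: Ccr2, Irf8, Cd68, Lyz2, Lgmn and Mpeg1, the last 4 being of the 6 genes listed as lysosomal or pore-forming. Over all genes 10.2% were called higher and 11% lower, so the 37 genes as a whole were near the background downward. The median difference was -0.10, against -0.02 over all genes, and 25 of the 37 estimates were below 0, where 16966 of 30701 were over all genes. The XX arrays lay wholly below the XY control arrays in 10 genes and above in 1, where 16.2% and 15.1% of all genes did so. Quantile normalization turned the split over all clusters from 4727 higher and 6732 lower to 6116 and 5385, and that of the 37 genes to 2 higher and 5 lower.

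Mpeg1, which encodes the pore-forming perforin-2 of phagocytes, had signals of 7.27, 7.48, 7.43 and 7.39 in XY controls, 7.14, 7.08, 7.44 and 7.57 in XY FOXL2+, and 6.78, 6.42, 6.43 and 6.52 in XX controls. The XX arrays were below all XY arrays, and the XY groups overlapped. Mpeg1 fell by 0.85 in XX controls (SE 0.12, adjusted p = 0.00025), was 0.77 higher in XY FOXL2+ than in XX (SE 0.12, adjusted p = 0.00261), and differed by -0.08 between the XY groups (95% interval -0.34 to 0.17). Both calls held with any single array left out.

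Lgmn encodes legumain, a lysosomal protease. Its signals were 12.06, 12.09, 11.92 and 12.31 in XY controls, 11.71, 11.86, 11.77 and 11.98 in XY FOXL2+, and 11.46, 11.33, 11.24 and 11.43 in XX controls. The groups stepped down in that order, with overlap between the XY groups at 1 pair of arrays. Lgmn fell by 0.73 in XX controls (SE 0.10, adjusted p = 0.000236), and XY FOXL2+ exceeded XX by 0.47 (SE 0.10, adjusted p = 0.0173). The difference between the XY groups was -0.26 (adjusted p = 0.159). The call against XX was lost without XY FOXL2+ replicate 4 or XX control replicate 2 or 3 (adjusted p of 0.0561 to 0.0623).

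Lyz2, the lysozyme of macrophages and neutrophils, had the widest spread within the lysosomal genes. It read 8.28, 9.41, 9.0 and 10.21 in XY controls, 11.28, 8.20, 9.32 and 9.18 in XY FOXL2+, and 7.79, 6.97, 7.27 and 7.60 in XX controls. Every XX array was below every XY array. Lyz2 fell by 1.82 in XX controls (SE 0.54, adjusted p = 0.0337), and XY FOXL2+ exceeded XX by 2.09 (SE 0.54, adjusted p = 0.0416). The first call was lost without XY control replicate 2, 3 or 4 or any 1 XX array (adjusted p of 0.0515 to 0.101). The second was lost without XY control 2 or 3, XY FOXL2+ 3 or 4 or any 1 XX array (0.0572 to 0.121), and with only those groups fitted (0.0769). It was also lost with replicate number as a block (0.058).

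Cd68, a lysosomal membrane protein of macrophages, read 7.95, 7.89, 7.78 and 7.96 in XY controls, 7.74, 8.0, 7.95 and 8.09 in XY FOXL2+, and 7.78, 7.40, 7.30 and 7.55 in XX controls. The XX arrays overlapped both XY groups only through XX replicate 1. Cd68 fell by 0.39 in XX controls (SE 0.11, adjusted p = 0.0279), and XY FOXL2+ exceeded XX by 0.44 (SE 0.11, adjusted p = 0.0382). The first call was lost without XY control 1, 2 or 4 or XX control 2, 3 or 4 (0.0541 to 0.0907), and on quantile normalization (0.0837) and median centring (0.061). The second was lost without any 1 array except XY FOXL2+ replicate 1 and XX control replicate 1 (0.052 to 0.119), on median centring (0.0663), and with only those groups fitted (0.105). It was also lost with replicate number as a block (0.0607). Ctss, the protease cathepsin S, and Laptm5, a lysosomal membrane protein of blood cells, passed in no comparison.

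XY FOXL2+ and XX gonads differed in 7 of the 37 genes, all higher in XY FOXL2+: Adgre1, C1qb, Cd68, Lyz2, Lgmn, Mpeg1 and Cd53. Over all genes 3.2% were called higher and 3.32% lower. The median difference was 0.28, against 0.03 over all genes, and 34 of the 37 estimates were above 0, where 18228 of 30701 were over all genes. Of the 37, 22 genes, all higher, had an unadjusted p under 0.05, where 11.4% of all genes were higher and 9.28% lower at that p. All 4 XY FOXL2+ arrays lay above all XX arrays in 15 genes and below in 0, where 7.81% and 6.33% of all genes did so. The number called was the least stable of the 3 comparisons. It was 1 without XY FOXL2+ replicate 4 or XX control replicate 2 or 3, 2 without XY FOXL2+ replicate 3, 3 without XY control replicate 3, and 4 without XY control replicate 4 or XX control replicate 4. It was 9 without XY FOXL2+ replicate 1, and 1 (Mpeg1) when XY FOXL2+ replicates 3 and 4 were both left out. Adjusted p was then 0.093 for Cd53, 0.1 for Lgmn, 0.117 for Lyz2, 0.149 for Adgre1, 0.206 for Cd68 and 0.257 for C1qb.

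Endothelial markers, of vessel cells, moved in the same direction in that comparison, as did several other marker lists. XY FOXL2+ exceeded XX past the threshold in 4 of 11 endothelial markers measured, with 0 past it the other way, 10 of 11 estimates were above 0 and the median was 0.39. Over all genes, 3.2% were called higher and 3.32% lower, and 18228 of 30701 estimates were above 0. The mean signal of the endothelial markers was 9.29 to 9.52 on the XY FOXL2+ arrays, 9.09 to 9.33 in XY controls and 8.95 to 9.22 in XX controls. Relative to XY control, 3 rose in XY FOXL2+ (median 0.14), while 1 rose and 4 fell in XX (median -0.14). Over all genes, 3.37% were called higher and 4.72% lower in XY FOXL2+, and 10.2% and 11% in XX. In XY FOXL2+ minus XX control the median was also above 0 for Sertoli markers (1.65, 5 of 8 called higher). For fetal Leydig cell markers it was 1.9 (1 of 4 called higher). Erythroid, neutrophil, platelet and lymphoid markers had medians of 0.77, 0.38, 0.12 and 0.08. Mesonephric, germ cell and mast cell markers had medians below 0 (-0.51, -0.44 and -0.21). The part of vessel cells, or of any of these cells, in the leukocyte signals was not tested.

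**Figure D3:**
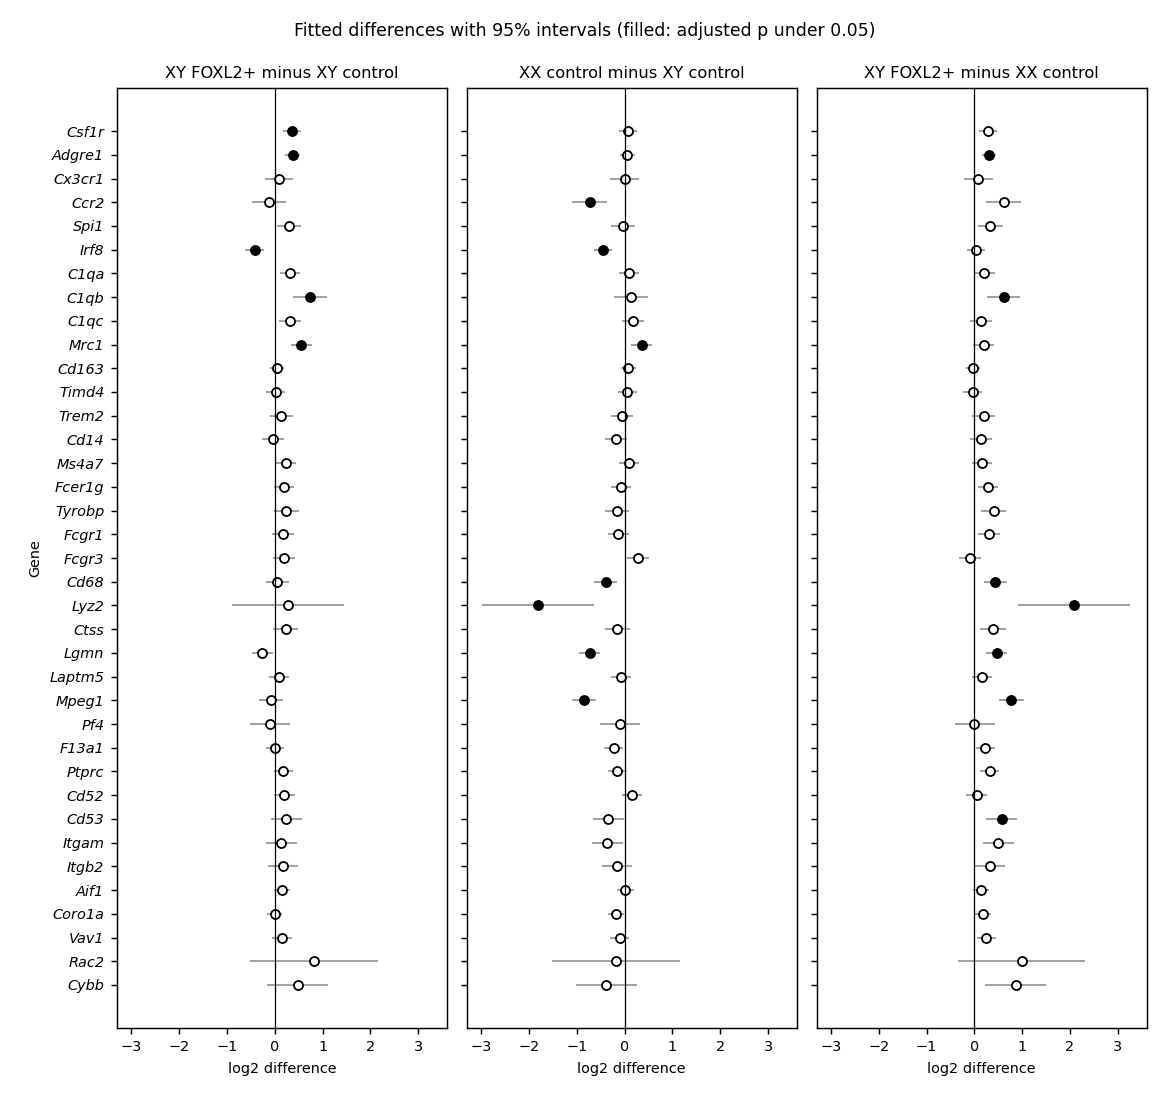
Fitted log2 differences (points, horizontal axis) of the 37 genes (rows) with 95% intervals (lines), for XY FOXL2+ minus XY control, XX control minus XY control and XY FOXL2+ minus XX control. Filled points have an adjusted p under 0.05: 5 genes in the first panel, 7 in the second and 7 in the third. In the third, 34 of 37 points lie right of 0, against 18228 of 30701 over all genes.

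Among pan-leukocyte surface proteins, Cd53, a tetraspanin of leukocytes, was the 1 gene to pass. It read 7.63, 7.91, 7.57 and 7.70 in XY controls, 8.46, 7.63, 7.83 and 7.86 in XY FOXL2+, and 7.40, 7.38, 7.24 and 7.44 in XX controls, so the XX arrays were lowest. XY FOXL2+ exceeded XX by 0.58 (SE 0.15, adjusted p = 0.0417). The call was lost without XY control 1, 3 or 4, XY FOXL2+ 3 or 4, or any 1 XX array (0.0573 to 0.117), on quantile normalization (0.0821) and median centring (0.0746), and with only those groups fitted (0.103). It was also lost with replicate number as a block (0.0593). Ptprc, the common leukocyte antigen CD45, read 6.61, 6.18, 6.35 and 6.54 in XY FOXL2+ and 6.10, 6.02, 6.06 and 6.19 in XX controls. Its difference of 0.32 missed the threshold (adjusted p = 0.063), and XY FOXL2+ replicate 2 fell within the XX range. Itgam, the integrin CD11b of myeloid cells, gave 0.50 (adjusted p = 0.0786), and the groups did not overlap. Its partner Itgb2 gave 0.33 (adjusted p = 0.237), and Cd52, a small surface glycoprotein of leukocytes, gave 0.05 (adjusted p = 0.859).

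Among signalling and oxidase genes, Rac2 and Cybb read highest on 1 array. Rac2, a haematopoietic GTPase that drives the phagocyte oxidase, read 7.44, 7.71, 7.50 and 7.62 in XY controls and 7.53, 7.32, 7.53 and 7.20 in XX controls. In XY FOXL2+ it read 11.0, 8.02, 7.27 and 7.25, so replicate 1 was far above all other arrays while replicates 3 and 4 were among the lowest. The difference of 0.82 from XY control had an SE of 0.62 and an adjusted p of 0.522. Cybb, the catalytic subunit of that oxidase, read 8.40 on XY FOXL2+ replicate 1, against 6.62 to 7.07 on the other arrays of its group and 6.43 to 7.05 in XY controls. It gave 0.48 (SE 0.30, adjusted p = 0.412). Vav1, a guanine nucleotide exchange factor, Coro1a, an actin-binding protein, and Aif1, the macrophage protein IBA1, gave 0.16, 0.00 and 0.15 in XY FOXL2+ minus XY control, none past the threshold.

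Neutrophil markers were high on the same array. S100a8, a calprotectin chain, read 13.84 on XY FOXL2+ replicate 1 and 6.93 to 8.07 on the other arrays of that group, 8.19 to 10.72 in XY controls and 4.96 to 5.91 in XX controls. S100a9 and Ngp, granulocyte proteins named here after their values were seen, read 12.89 and 11.34 on that array. The mean over all 11 neutrophil markers measured was 8.36 on XY FOXL2+ replicate 1, 5.84 to 6.19 on the other 3 arrays, 6.12 to 6.91 in XY controls and 5.56 to 5.65 in XX controls. Within XY controls the list read highest on replicates 4 and 2, which also had the highest Lyz2 and Cybb signals. Of the 11 markers 0 passed in limma for XY FOXL2+ minus XY control (1 at an unadjusted p under 0.05), and 2 fell in XX relative to XY controls: S100a8 fell by 3.94 (adjusted p = 0.0404) and Elane, neutrophil elastase, fell by 0.46 (adjusted p = 0.0338). Over all genes, 3.37% were called higher and 4.72% lower in the first comparison, and 10.2% and 11% in the second. At an unadjusted p under 0.05, 10.9% of all genes were higher and 10.4% lower in the first. On XY FOXL2+ replicate 2 Rac2 read 8.02, while the neutrophil mean (5.84), Lyz2 (8.2) and Cybb (6.62) were the lowest of their group. Erythroid markers, given below, were high on replicates 1 and 2 (means of 10.74 and 10.32). The part of neutrophil or erythroid signal in the Lyz2, Rac2, Cybb and Itgb2 values was not tested.

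**Figure D4:**
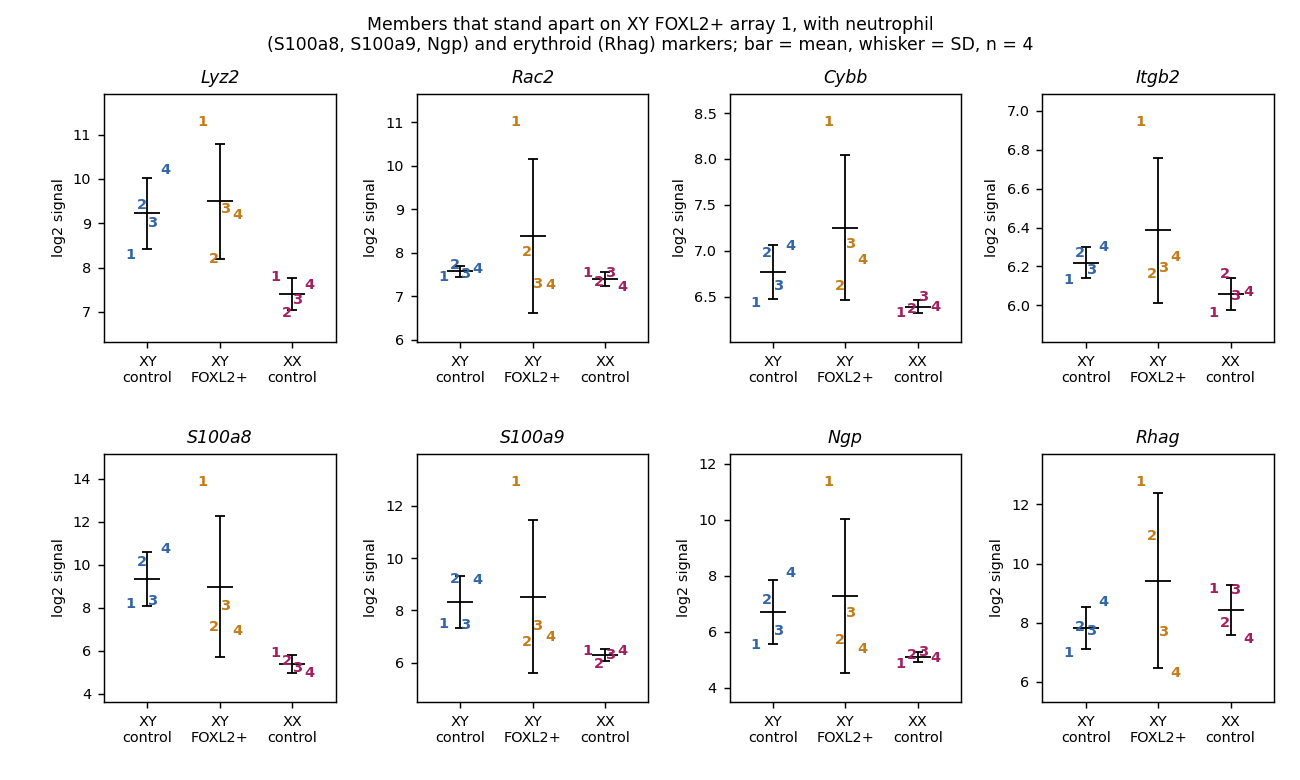
Log2 signal (vertical axis, scaled to each gene) of Lyz2, Rac2, Cybb and Itgb2 (top) and of the neutrophil markers S100a8, S100a9 and Ngp and the erythroid marker Rhag (bottom), chosen after their values were seen. Digits are replicate numbers, bars are group means and whiskers the SD (n = 4). Replicate 1 of XY FOXL2+ is the highest of the 12 arrays in every panel.

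The marker lists of other blood cells gave these values. Over all genes, 3.37% were called higher and 4.72% lower in XY FOXL2+ minus XY control. The shares were 10.2% and 11% in XX minus XY control, and 3.2% and 3.32% in XY FOXL2+ minus XX control. At an unadjusted p under 0.05 in limma they were 10.9% and 10.4%, 14.9% and 17.1%, and 11.4% and 9.28%, in the same order. The mean of 8 erythroid markers was 10.74 and 10.32 on XY FOXL2+ replicates 1 and 2, and 8.35 and 7.77 on replicates 3 and 4, against 8.01 to 8.71 in XY controls. One of the 8, the transferrin receptor gene Tfrc, rose in XY FOXL2+ (1.53, adjusted p = 0.0457). The 13 lymphoid markers read 5.24 to 5.45 on average on all 12 arrays, and in limma 0 passed in any of the 3 comparisons (0, 0 and 2 at an unadjusted p under 0.05, in the order above). Those averages lay below the range of the Y-linked genes in XX gonads, so lymphoid RNA was not shown to be above background. Of 8 megakaryocyte and platelet markers, 0 passed between the XY groups (1 at an unadjusted p under 0.05), and the integrin gene Itgb3 fell by 0.72 in XX controls (adjusted p = 0.0143). Pf4, a chemokine of platelets and of some macrophages, read 7.32 on XY control replicate 2 and 6.12 to 6.69 elsewhere, and passed in no comparison. Of 9 mast cell and basophil markers, 0 passed in limma between the XY groups (1 at an unadjusted p under 0.05). Gata2, a transcription factor of these and other cells, was the 1 marker to pass elsewhere: it rose by 1.44 in XX relative to XY controls (adjusted p = 7.18e-05) and was lower in XY FOXL2+ than in XX (log2 -1.01, adjusted p = 0.00419). The mean of the 9 lay at 7.19 to 7.33 in XX controls, at 6.49 to 6.93 on the XY control arrays and at 6.58 to 7.31 on those of XY FOXL2+, and its part in the leukocyte signals was not tested. The 9 include Kit, which is also on the germ cell list. In XX minus XY control 5 of the 9 estimates were above 0 and 4 below. F13a1, coagulation factor XIII of macrophages and platelets, gave -0.23 in XX minus XY control (adjusted p = 0.0971), with all XX arrays below all XY control arrays.

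Signals that attract or sustain macrophages were also read. Of 13 such ligands, 0 rose and 2 fell in XY FOXL2+ relative to XY control, where 3.37% of all genes were called higher and 4.72% lower. Cx3cl1, the ligand of CX3CR1, read 7.0, 6.82, 7.04 and 7.15 in XY controls, 6.51, 6.55, 6.40 and 6.50 in XY FOXL2+, and 6.83, 6.69, 6.68 and 6.90 in XX controls, and it fell by 0.51 in XY FOXL2+ (adjusted p = 0.00248). The XY FOXL2+ arrays were below every control array. Cxcl12, a chemokine for haematopoietic and germ cells, fell by 1.84 in XY FOXL2+ (adjusted p = 0.0204) and fell by 3.91 in XX controls (adjusted p = 4.43e-05). In XX controls 1 ligand rose, Il34, the second ligand of CSF1R, by 0.37 (adjusted p = 0.00537), and 2 fell, Cxcl12 and Tgfb1. The Il34 signals lay in or below the range of the Y-linked genes in XX gonads on every array. Over all genes, 10.2% were called higher and 11% lower in XX relative to XY controls.

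Further genes of macrophages gave these counts. Of 29 measured, where 3.37% of all genes were called higher and 4.72% lower, 2 rose and 0 fell in XY FOXL2+ relative to XY control: Lcp1, the leukocyte plastin (0.51, adjusted p = 0.0115), and Slco2b1 (0.23, adjusted p = 0.0468). Lcp1 read 8.14, 8.25, 8.15 and 8.21 in XY controls, 8.97, 8.43, 8.67 and 8.74 in XY FOXL2+, and 8.18, 8.11, 7.91 and 8.08 in XX controls, with XY FOXL2+ above all control arrays. The median over the 29 was 0.11. In XX relative to XY controls 3 of the 29 rose, against 10.2% of all genes, and 1 fell, against 11%, with Ptpn6, the phosphatase SHP-1, 0.82 higher (adjusted p = 0.00238) and Ms4a6c lower (log2 -0.42, adjusted p = 0.00963). Of 11 other myeloid transcription factors, 0 rose and 1 fell in XY FOXL2+: Cebpa, by 0.86 (adjusted p = 0.00854). In XX relative to XY controls 2 of the 11 rose and 2 fell in limma, against 10.2% and 11% of all genes. Cebpa fell by 1.01 (adjusted p = 0.00111), while Irf5 rose by 0.56 (adjusted p = 0.00118) and Bcl6 by 0.35 (adjusted p = 0.0289).

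Over all genes, 3.37% were called higher and 4.72% lower in XY FOXL2+ relative to XY control, and 10.2% and 11% in XX controls. Among 10 other complement genes, 2 rose in XY FOXL2+ relative to XY control and 0 fell. They were Cd55, which encodes a complement decay-accelerating factor (1.52, adjusted p = 0.00147), and C2, a component downstream of C1q (0.34, adjusted p = 0.0159). In XX controls C2 was the 1 gene of the 10 to pass in limma, 0.52 higher than in XY controls (adjusted p = 0.000405). The C2 signals lay in or near the range of the Y-linked genes in XX gonads. Of 14 engulfment genes, Gas6, a bridging ligand for dying cells, rose by 1.20 (adjusted p = 0.00213), while its receptor Tyro3 (log2 -0.65, adjusted p = 0.0145) and the scavenger receptor Cd36 (log2 -0.77, adjusted p = 0.000351) fell. Of 10 class II and monocyte genes, 2 fell: H2-Aa, a class II chain (log2 -0.40, adjusted p = 0.00226), and Nr4a1, a nuclear receptor of patrolling monocytes (log2 -1.66, adjusted p = 7.3e-06). Both also fell in XX controls, by 0.48 and 1.67, together with the monocyte gene Ly6c2, by 1.48 (adjusted p = 0.000823). Several of these genes are also made by somatic cells of the gonad, and Sertoli markers moved with the groups: 7 of 8 fell in XY FOXL2+ and 8 of 8 in XX controls. All 4 fetal Leydig cell markers measured fell in both groups relative to XY control. The part of those cells in any signal given here, including that of Lgmn and Cxcl12, was not tested.

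Across the 3 groups, the mean of XY FOXL2+ was above both control means in 27 of the 37 genes, where 33.6% of all genes had that order, and below both in 0, where 19.5% did. All 4 XY FOXL2+ arrays were above all 8 control arrays in 3 genes (Csf1r, Adgre1 and C1qb; 1.1% of all genes). All 4 XX arrays were below all 8 XY arrays in 7 (Ccr2, Lyz2, Lgmn, Mpeg1, Cd53, Itgam and Vav1; 4.75% of all genes). The average over the 37 genes on single arrays was 6.77, 6.99, 6.80 and 6.87 in XY controls, 7.20, 6.86, 7.0 and 7.06 in XY FOXL2+, and 6.74, 6.62, 6.64 and 6.74 in XX controls. XY control replicate 2 was the highest of its group in 25 of the 37 genes, and XY FOXL2+ replicate 1 in 15 and replicate 4 in 14. Of the 37 genes, 11 passed in at least 1 comparison and 26 in none, where 23.4% and 76.6% of all genes did so.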

How the data were processed

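RNA of 12 pairs of gonads (100 ng each) was labelled with the Affymetrix WT Plus kit, per the labels' protocols. The values are log2 signals per transcript cluster as deposited by the authors. The log base was taken as 2 from their range. How background was corrected and arrays normalized, and on which genome build, was not given in the sources used here. Control probe sets (6732 of 72688 entries) were left out, and 65956 clusters were tested with no filter. Of these, 31258 carry 1 symbol in the platform annotation, updated through RefSeq, 1492 carry several and 33206 are unlisted, both unnamed here. A gene with more than 1 cluster is represented by its brightest on average.

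One model over the 12 arrays was fitted with limma 3.58.1 (R 4.3.3; lmFit, then eBayes with trend), two-sided, with Benjamini-Hochberg adjustment over 65956 clusters and a threshold of 0.05. The fit was tested on simulated data with independent normal values and 1 spread per cluster for all arrays. That test does not cover arrays of unequal weight (0.296 to 2.064 here) or genes that vary together. The number of arrays limits the precision. The genes and lists were chosen with earlier results of these data known. All 37 genes are named, and of each other list at most the 3 called genes with the largest difference, unless said otherwise. Alternatives were quantile normalization, median centring, only the groups compared, array weights, a replicate block, no intensity trend, brighter clusters only, the mean over a gene's clusters, and each array left out. One alternative, without XY FOXL2+ replicates 3 and 4, was chosen after seeing the data.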

Additional observations from a re-analysis of the deposited data

Results flagged for a closer look

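In 7 of 111 sets of 4 arrays (37 genes in 3 groups), 1 array lay far from the other 3 by Dixon's criterion, which chance alone meets in about 1 of 20 sets. XY control replicate 1 was lowest for Ccr2, at 6.15 against 6.64 to 6.70, and for Ctss, at 7.36 against 7.64 to 7.68, and highest for Cd52, at 6.61 against 6.36 to 6.37. XY control replicate 2 was highest for Coro1a, at 6.56 against 6.46 to 6.48. XY FOXL2+ replicate 1 was highest for Itgb2, at 6.94 against 6.16 to 6.25. XX control replicate 3 was lowest for Mrc1, at 8.05 against 8.29 to 8.32, and XX control replicate 2 was lowest for Aif1, at 5.74 against 5.91 to 5.92.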

How the results depend on the processing

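Over the 37 genes and 3 comparisons, 2141 of 2267 recomputed single-gene values stayed on their side of the threshold in the same direction, 93 lost a call, 33 gained one and none of the called values changed sign. Most of these values belong to genes not called in the main fit (32, 30 and 30 of 37, in the order of the comparisons below). The 93 lost calls come only from the few genes called, so the 2141 do not show how stable the calls were. In XY FOXL2+ minus XY control, 4 genes were called higher and 1 lower. The lower count was 0 with only the 2 groups compared. It was also 0 among clusters above the median mean signal, where Irf8 was not tested. Leaving out 1 array gave 2 to 6 higher (2 without XY control replicate 3) and a median of 0.114 to 0.24. In XX minus XY control, 1 was called higher and 6 lower. The higher count was 2 on quantile normalization, on median centring and with array weights, Fcgr3 being the added gene in each, and leaving out 1 array gave 0 to 1 higher and 4 to 8 lower. In XY FOXL2+ minus XX control, 7 were called higher. That count was 4 on median centring, 2 with only the 2 groups compared, 13 with array weights, 2 with the replicate block, 1 with XY FOXL2+ replicates 3 and 4 left out (chosen after seeing the data), and 1 to 10 with 1 array left out. Without those 2 arrays the XY FOXL2+ minus XY control counts were again 4 and 1, with Spi1 and Rac2 called and Csf1r (adjusted p = 0.0645) and C1qb (0.0749) not. The labels do not say whether same-numbered arrays share a litter or batch. Correlations of their deviations ran from -0.091 to 0.179, and from 0.015 to 0.179 between XY FOXL2+ and XX control, which cannot settle it. With the replicate block XY FOXL2+ minus XY control lost Csf1r (0.0627). Over all clusters, the counts called higher and lower in XY FOXL2+ minus XY control went from 1621 and 3077 to 2184 and 2656 on quantile normalization, to 809 and 1891 with only the 2 groups, and to 3055 and 5263 without XY FOXL2+ replicates 3 and 4. In XX minus XY control, median centring gave 5782 and 5575. In XY FOXL2+ minus XX control, 1891 and 1744 became 1540 and 2172 on median centring, 944 and 972 with only the 2 groups, 3668 and 3084 with array weights, and 1013 and 842 without the 2 arrays. Signals near background limit what could be seen for the dimmer genes.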

Other observations

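Within XY FOXL2+, replicates 3 and 4 were the highest arrays for several of the 37 genes, picked here after their values were seen. Ctss read 8.04 and 8.03 on them against 7.65 and 7.55 on replicates 1 and 2, Trem2 read 5.90 on both against 5.49 and 5.61, and Ccr2 read 6.61 and 6.79 against 6.23 and 6.02. The Trem2 signals, and some of Ccr2, lay in or below the range of the Y-linked genes in XX gonads (5.85 to 6.39). The mean of the 8 Sertoli markers was 10.28 and 10.12 on replicates 3 and 4, and 9.12 and 8.08 on replicates 1 and 2. The engulfment gene Elmo1 read 11.42 and 11.41 against 10.40 and 10.20, and Cxcl12 read 10.86 and 10.98 against 9.25 and 8.62. Gas6 ran the other way, with 13.55 and 13.51 against 14.33 and 14.49. Why these arrays differ was not tested.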
